A study of Mus musculus with 6 samples.

Results

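The genes described here are 9 genes that mark the B cell lineage, measured in sorted group 1 innate lymphoid cells (ILC1s) of the mouse. They were taken by symbol from the 24628 genes of the deposited table, and all 9 were found: Cd22, Cd79a, Cd79b, Ms4a1, Pax5, Ebf1, Ighm, Igkc and Cr2. ILC1s are innate lymphocytes that make interferon-γ and share much of their expression with natural killer (NK) cells. The series compared wild-type with conditional knockout (cKO) ILC1s for Rora, the gene of the nuclear receptor RORα, with 3 RNA-seq libraries in each group.

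The control libraries are titled Rorafl/fl, that is, homozygous for a floxed Rora allele, and are called floxed below. The other 3 are titled only as treatment. Since the series text names just those 2 kinds of cells, these were read as the cKO group, and their columns add the name Ncr1 to Rora. Ncr1 is the name of a Cre driver gene, and it is absent from the names of the floxed columns. Any effect of a driver allele, on Ncr1 itself or on other genes, would be confounded with the group and was not tested. Strain, age, sort gate, number of animals and the deleted part of Rora are not given in the labels. Separate animals or cultures are not stated for the 3 libraries of a group, so each p-value rests on a spread between libraries that may be purely technical. A ratio below is the cKO mean divided by the floxed mean.

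The B cell receptor is a surface antibody, built from a heavy chain and a light chain, that signals through the paired chains CD79A and CD79B. EBF1 and PAX5 set up and maintain the B cell program, while CD20 (the product of Ms4a1), CD22 and complement receptor CR2 mark the surface of mature B cells and tune the receptor's signal. RNA from B cells carries all of these transcripts together, so a small number of B cells in a sort would add them in the proportions of those cells, and a different number in the 2 groups would multiply each added amount by 1 shared factor. The comparison therefore addressed both the level of each gene and whether the 9 genes shared 1 ratio between the groups.

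Recovered depth was 20152146 to 22440170 reads per library. All 11 ILC1 and NK genes examined were at 1 RPKM (reads scaled to gene length in kilobases and to library depth) or more in at least 3 libraries, with Ncr1, an activating receptor, at 360 to 381 RPKM in floxed and 233 to 258 RPKM in cKO libraries, and Il2rb, an interleukin-2 receptor chain, at 234 to 248 RPKM throughout. Of these 11 genes 4 passed in the main fit, Ncr1 and the chemokine receptor Cxcr6 (52.76% of floxed) as lower, and the factor Eomes (155.07%) and the granzyme Gzma (156.27%) as higher. Rora was at 6.92, 7.41 and 7.91 RPKM in floxed libraries 1, 2 and 3 and at 5.69, 6.29 and 6.24 RPKM in the cKO libraries, a log2 difference of -0.25 that did not pass (limma adjusted p = 0.2419). Reads outside the deleted part of Rora would not show the deletion. Of the genes with 1 to 20 reads in a library, 77.41 to 80.37% had an even number of reads, so reads were not treated as independent molecules.

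The 9 genes fell into an abundant pair and a low group. Igkc and Ighm, the immunoglobulin constant regions, were at 121 to 143 and 63.35 to 79.43 RPKM. Cd22 was intermediate at 6.03 to 10.2 RPKM, and the other 6 genes stayed between 0 and 1.94 RPKM in every library. Between the groups, Cd22 was 65.32% of its floxed mean and passed the test, Ighm was 116.17% and Igkc 101.72% of theirs, and the 6 low genes had means between 32.3 and 65.44% of floxed, none of which passed. In bulk RNA a smaller number of cells of a type and less RNA per cell cannot be told apart.

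**Figure D1:**
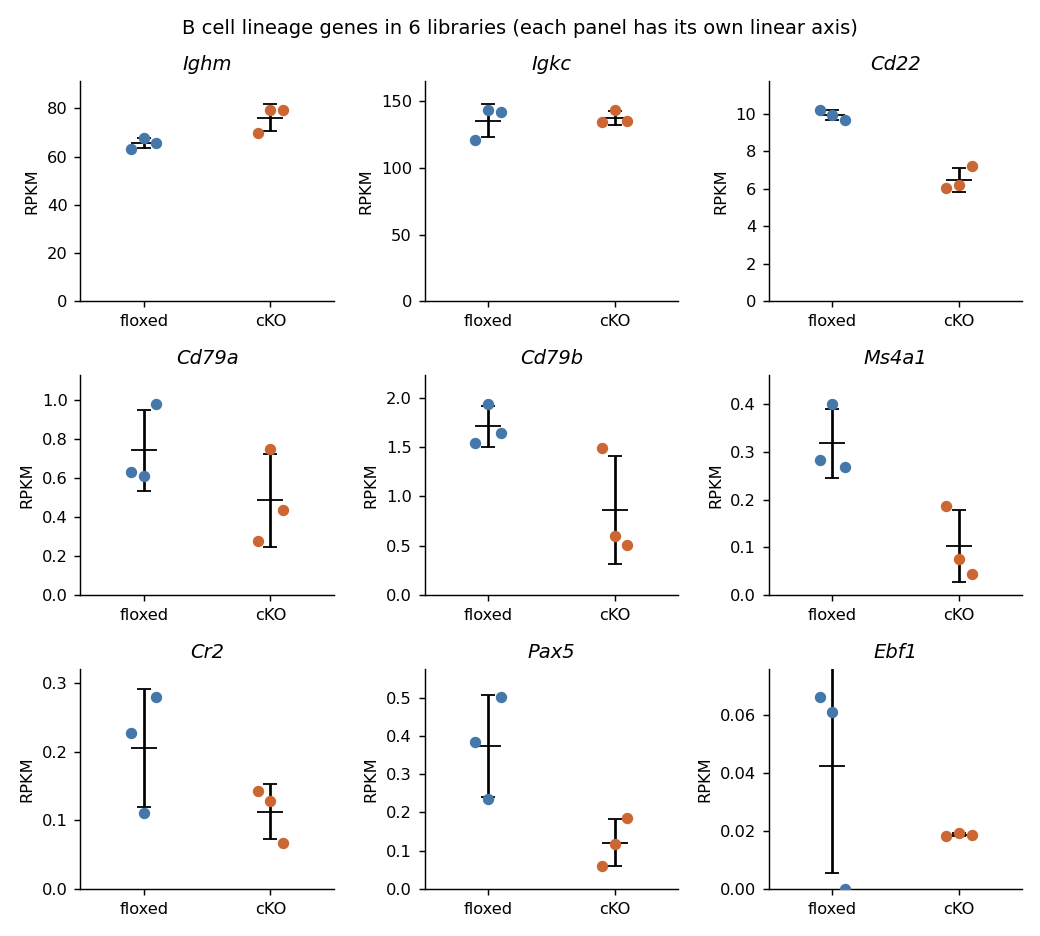
RPKM of the 9 genes in each library, 1 panel per gene, each with its own linear axis from 0. Points are libraries 1 to 3 of a group from left to right, and the black marks are the mean and SD (n = 3). The cKO points of Cd22, Cd79b, Ms4a1 and Pax5 all lie below the floxed points, and those of Ighm all lie above.

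The main fit, limma on log2(RPKM + 1), tested genes that reached 1 RPKM in 3 or more libraries, and only Cd22, Cd79b, Ighm and Igkc entered. Of these 4, 1 was lower and 0 were higher in the cKO libraries at an adjusted p under 0.05, where 0.668% of the 12731 tested genes were lower and 0.652% were higher. At an unadjusted p under 0.05, 2 were lower and 1 was higher, against 1095 lower and 706 higher of the 12730 symbols tested. A second fit, limma voom on reads recovered from RPKM and gene length, tested the 8 genes with at least 60 reads over the 6 libraries, all but Ebf1. It placed 1 of 8 lower (Cd22) and 1 of 8 higher (Ighm), against 1.31% of 15179 genes lower and 2.02% higher. Groups that did not overlap were found for 4 of these 8 genes in the lower direction and for 1 in the higher direction, against 12.0% and 7.24% of the same 15179 genes.

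Among the constant regions, Ighm encodes the heavy chain of IgM, the first antibody class a B cell makes (chromosome 12, 113418558 to 113422730, minus strand, mm10). It was at 63.35, 67.7 and 65.7 RPKM in floxed libraries 1 to 3 and at 69.73, 79.42 and 79.43 RPKM in the cKO libraries, on 2573 to 3305 reads. The lowest cKO library lay just above the highest floxed library, so the groups did not overlap. The log2 difference was 0.21 (95% interval 0.06 to 0.36), and this did not pass in the main fit (limma adjusted p = 0.2078). The voom fit gave 0.25 with an adjusted p of 0.03377, which passed. That was the only one of 14 alternative fits in which Ighm passed, and voom without TMM factors, a scaling between libraries, gave 0.21 (adjusted p = 0.08184).

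Igkc, the constant region of the kappa light chain (chromosome 6, 70726435 to 70726966, plus strand), was the most abundant of the 9. It was at 121.03, 142.99 and 141.44 RPKM in the floxed and 133.94, 143.44 and 135.04 RPKM in the cKO libraries. The groups overlapped widely, with cKO libraries 1 and 3 inside the floxed range and cKO library 2 just above it. The log2 difference was 0.03 (95% interval -0.14 to 0.20, limma adjusted p = 0.9074). It changed sign, to -0.05, without floxed library 1, and was -0.003 without cKO library 2.

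Cd22 encodes a sialic acid-binding inhibitory receptor of B cells (chromosome 7, 30865402 to 30880342, minus strand). It was at 10.2, 9.93 and 9.64 RPKM in floxed libraries 1 to 3, on 1118, 1009 and 1052 reads. In the cKO libraries it was at 6.03, 6.20 and 7.23 RPKM, on 682, 660 and 804 reads. The 2 groups were well apart, with a gap between them larger than the range within either. Cd22 fell by 0.55 on the log2(RPKM + 1) scale (95% interval -0.75 to -0.35, limma adjusted p = 0.03534). The means were 9.93 ± 0.285 and 6.49 ± 0.649 RPKM (SD, n = 3 each). The call held in 6 of 15 alternative fits, whose adjusted p ran from 0.0003096 to 0.1375 while the log2 difference stayed between -0.62 and -0.51. It was lost on leaving out any library other than cKO library 3, with adjusted p of 0.1129 to 0.1375.

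A gene on the opposite strand lies within Cd22. Gm29439, a predicted gene (chromosome 7, 30872733 to 30873333, plus strand, 509 exon bases), shared 479 exon bases with Cd22, which are 94.11% of its own bases and 9.5% of those of Cd22. It was at 28.1, 24.1 and 25.0 RPKM in the floxed and 20.5, 13.4 and 16.8 RPKM in the cKO libraries, and did not pass (log2 difference -0.59, limma adjusted p = 0.1459). The groups of Gm29439 did not overlap either. Without a stated strand setting of the counting, reads of the 2 genes cannot be told apart over the shared bases. Whether such reads were counted for 1 gene or both is not known. Counting for neither would hardly leave Gm29439 the 144 to 311 reads per library that it had. The reads of Gm29439 and the shared bases were taken out of Cd22 on the assumption that those reads were counted for both genes. The rest of Cd22 was then at 8.15, 8.29 and 7.87 RPKM in the floxed and 4.38, 5.36 and 6.11 RPKM in the cKO libraries. These groups still did not overlap, and the log2 difference of -0.54 no longer passed (limma adjusted p = 0.09374). If those reads were never counted in Cd22, neither these values nor the lost call holds. The assumption was not tested.

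Cd79a and Cd79b encode the 2 signalling chains of the receptor. Cd79a (chromosome 7, 24897381 to 24902197, plus strand) was at 0.632, 0.613 and 0.983 RPKM in the floxed and 0.275, 0.748 and 0.436 RPKM in the cKO libraries, on 9 to 31 reads. The groups overlapped through cKO library 2. Cd79b (chromosome 11, 106311341 to 106314762, minus strand) was at 1.54, 1.94 and 1.65 RPKM in the floxed and 1.49, 0.60 and 0.51 RPKM in the cKO libraries, on 16 to 56 reads. The groups did not overlap, but cKO library 1 came close to the lowest floxed library while the other 2 cKO libraries were far below it. In the voom fit Cd79a had a log2 difference of -0.66 (95% interval -1.90 to 0.58, adjusted p = 0.6909) and Cd79b one of -1.08 (95% interval -2.05 to -0.12, adjusted p = 0.2697), and neither passed. Cd79b also did not pass in the main fit, where its difference on the log2(RPKM + 1) scale was -0.57 (limma adjusted p = 0.3141).

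Ms4a1 and Cr2 are surface genes of mature B cells. Ms4a1 (chromosome 19, 11249675 to 11266241, minus strand) was at 0.283, 0.401 and 0.269 RPKM in the floxed and 0.187, 0.077 and 0.044 RPKM in the cKO libraries, on 38, 50 and 36 against 26, 10 and 6 reads. Every cKO library lay below every floxed library, and the cKO libraries differed among themselves more than the floxed ones in proportion. The voom fit gave a log2 difference of -1.76 (95% interval -2.99 to -0.54, adjusted p = 0.1223), which did not pass. Cr2 (chromosome 1, 195136811 to 195176716, minus strand), whose product binds complement fragments on antigen, was at 0.227, 0.110 and 0.279 RPKM in the floxed and 0.143, 0.128 and 0.067 RPKM in the cKO libraries. Floxed library 2 lay among the cKO values, so the groups overlapped, and the log2 difference of -0.80 did not pass (voom adjusted p = 0.5497).

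Pax5 and Ebf1 encode the transcription factors. Pax5 (chromosome 4, 44524757 to 44710487, minus strand) was at 0.385, 0.235 and 0.501 RPKM in the floxed and 0.060, 0.118 and 0.184 RPKM in the cKO libraries, on 74, 42 and 96 against 12, 22 and 36 reads. The groups did not overlap, and the log2 difference of -1.66 (95% interval -2.68 to -0.64) did not pass (voom adjusted p = 0.06663). Ebf1 (chromosome 11, 44617317 to 45008091, plus strand) had 14, 12 and 0 reads in the floxed and 4, 4 and 4 reads in the cKO libraries. With 38 reads in all it was too low for the voom fit. The 0 of floxed library 3 would allow up to 3 reads for counting error alone if reads were independent. All read numbers of Ebf1 were even, so that limit may be too low. The groups of Ebf1 overlapped, since the lowest library of the 6 was a floxed one.

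Promoter sequence is shown for Pax5, the lineage factor with the largest number of reads of the 2, and for Cd79a, a gene that EBF1 and PAX5 are known to act on. Sequences came from the RefSeq promoter table for GRCm38.p6, which held 5 of the 9 genes by symbol (Cd22, Cd79a, Cr2, Ebf1 and Pax5), and were limited to bases before the first exon of the deposited table. Capitals mark a match to the core letters bound by PU.1, GAGGAA on either strand, an ETS family factor of B and myeloid cells. The stretches are chr4:44710695-44710944 on the minus strand for Pax5, with 250 bases, and chr7:24897247-24897380 on the plus strand for Cd79a, with 134 bases.
Pax5: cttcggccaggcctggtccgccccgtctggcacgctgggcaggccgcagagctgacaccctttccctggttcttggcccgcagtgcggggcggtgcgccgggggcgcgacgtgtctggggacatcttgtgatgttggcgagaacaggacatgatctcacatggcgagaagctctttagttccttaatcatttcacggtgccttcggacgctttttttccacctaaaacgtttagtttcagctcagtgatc
Cd79a: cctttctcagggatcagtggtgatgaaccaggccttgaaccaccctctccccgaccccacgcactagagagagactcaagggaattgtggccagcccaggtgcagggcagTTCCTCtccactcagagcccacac

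Short motifs were searched on both strands in the 250 bases before each RefSeq start: the EBF core CCCNNGGG, the octamer ATGCAAAT and the PU.1 core GAGGAA. They occurred in 11.82%, 1.6% and 23.25% of 32851 mouse promoters. The windows of Pax5 and Cr2 held none of these letters. Cd79a held 1 PU.1 core, 140 bases before the RefSeq start, and Cd22 held 1 EBF core, 48 bases before it. Of the 2 starts listed for Ebf1, the second held 1 PU.1 core. A match is a description of letters and was not tested as a binding site. A site may also differ from these letters, so the lack of a match does not show the lack of a site.

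The summed reads of all 9 genes came to 246, 264 and 260 reads scaled to library depth (RPM) in the floxed and 239, 262 and 262 RPM in the cKO libraries. The means were 257 ± 9.19 and 254 ± 13.5 RPM (SD, n = 3), a ratio of 99.12%, and the groups overlapped (exact permutation p = 0.8, two-sided). Ighm and Igkc supplied 74.7 to 77.3% of those reads in the floxed and 84.6 to 86.3% in the cKO libraries. Without them the other 7 genes summed to 62.3, 59.8 and 60.8 RPM in the floxed and 36.0, 36.0 and 40.4 RPM in the cKO libraries. These groups lay far apart, with a ratio of 61.44% (exact permutation p = 0.1, the smallest that 3 against 3 libraries allow). With Cd22 also left out, the 6 low genes summed to 10.8, 9.73 and 12.2 RPM against 5.57, 4.69 and 3.99 RPM, a ratio of 43.63% and again no overlap (exact permutation p = 0.1).

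**Figure D2:**
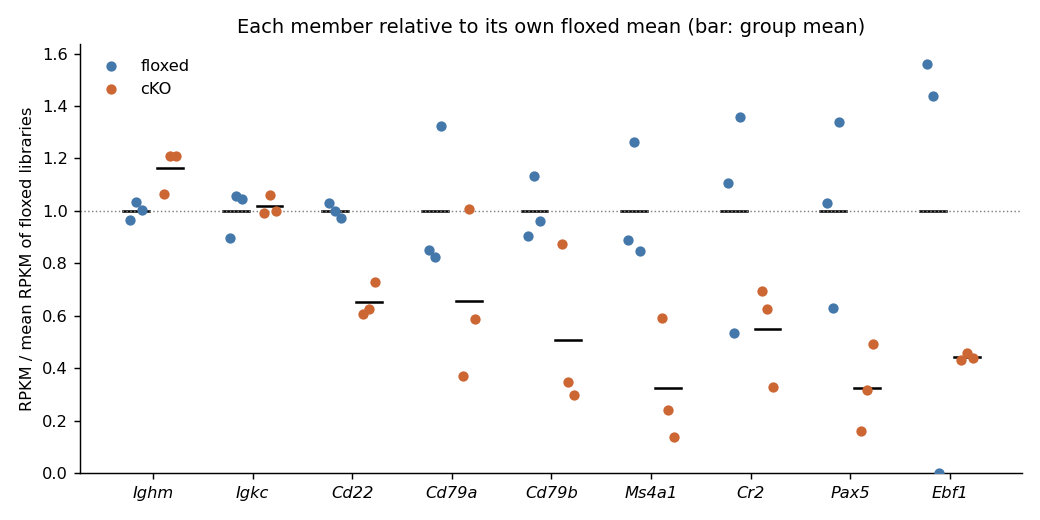
RPKM of each gene in each library divided by the gene's own floxed mean, on a linear axis. Points are libraries 1 to 3 of a group, bars are group means and the dotted line is the floxed mean. The cKO means of Ighm and Igkc lie at or above the line (116.17 and 101.72%), and those of the other 7 genes lie between 32.3 and 65.44%.

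The 9 genes did not share 1 ratio to within counting noise. The chi-square of the 9 genes by 2 groups table of summed reads was 62.7 per degree of freedom. Counting noise of independent reads around 1 shared ratio gives about 1, and reads that come in pairs would give more. Counting noise is too small a yardstick here, because pairs of libraries within a group also differed, by 2.71 to 7.59 per degree of freedom over the 6 pairs (median 4.32). The 9 pairs between the groups were at 15.5 to 31.9 (median 24.6), all above the pairs within groups. By reassigning libraries to groups, the exact permutation p was 0.1, the smallest possible over 20 assignments.

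Without Ighm and Igkc, the chi-square over the remaining 7 genes did not stand out from the spread of the libraries. Their chi-square between the groups was 7.37 per degree of freedom (exact permutation p = 0.3), and pairs between groups, at 3.09 to 8.98, covered nearly the same range as pairs within groups, at 2.19 to 8.77. For the 6 low genes the value was 3.05 (exact permutation p = 0.7). With Cd22 left out and the constant regions kept, 8 genes gave 33.3 (exact permutation p = 0.1). A p that misses the threshold does not show that the 7 genes share a ratio, since the 6 low genes rested on 88 to 263 reads per library together.

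**Figure D3:**
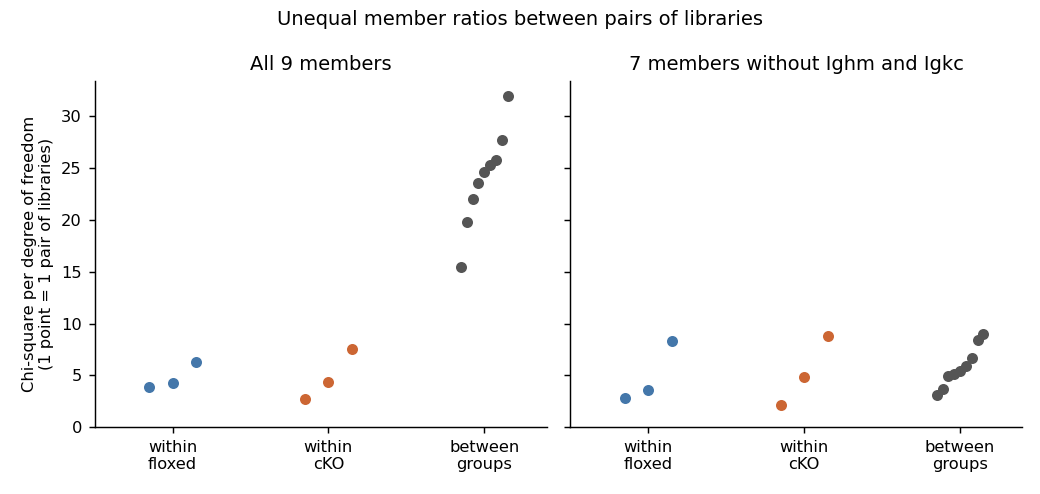
Chi-square per degree of freedom of the genes' reads between 2 libraries, 1 point per pair of libraries, for all 9 genes (left) and for the 7 without Ighm and Igkc (right). With all 9 genes the 9 pairs between groups lie above the 6 pairs within groups, and without the constant regions they cover nearly the same range.

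Each gene was also set against the summed reads of the others in the same library. Ighm was 91.1 to 94.3% of the other 8 genes in the floxed and 122.7 to 133.4% in the cKO libraries, and Cd22 was 23.0 to 26.5% in the floxed and 13.5 to 16.2% in the cKO libraries, a difference in the other direction. Both sets of groups were apart (exact permutation p = 0.1 for each). Against the other genes without the constant regions, Cd22 was at 400.0 to 515% in the floxed and 546 to 914% in the cKO libraries. Cd22 was thus less reduced than the sum of the 6 low genes, with no overlap (log2 difference 0.58, exact permutation p = 0.1), a departure from 1 ratio within the 7 genes that their joint chi-square did not separate from the spread of the libraries. None of the 6 low genes was apart from the rest of the 7 in this way, with exact permutation p of 0.2 to 1.0. These were 18 gene comparisons in a design whose smallest p is 0.1, and none can pass a correction.

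Ratios of levels within a library varied widely. Cd22 was 8.29 to 21.9 times the level of Cd79a and 4.03 to 14.3 times that of Cd79b, per length. Igkc was 144 to 233 times the level of Cd79a in the floxed and 192 to 487 times in the cKO libraries. Ranges of both groups overlapped for these 3 ratios, whose denominators rested on few reads.

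Other surface genes of B cells were examined from a list of 14, all present in the table. None of the 3 that entered the main fit and none of the 13 in the voom fit passed, with 0 and 2 lower at an unadjusted p under 0.05, where 1040 of the 15178 symbols of the voom fit were lower. Their median log2 difference was -0.98 in the voom fit, against -0.001 over all genes of that fit. With no filter the difference was below 0 for 13 of the 14, against 13610 of 24627 genes over the table. The 3 most abundant ones had overlapping groups: Cd72, an inhibitory lectin, was at 55.15 to 60.03 RPKM in the floxed and 54.4 to 59.3 RPKM in the cKO libraries, and Cd37, a tetraspanin, at 54.7 to 60.9 and 52.3 to 56.1 RPKM. Tnfrsf13c, the BAFF receptor, was at 3.99 to 4.67 and 3.24 to 4.85 RPKM.

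The low genes of that list included 2 with large differences, named here after their values were seen. Fcmr, the IgM Fc receptor, had 28, 19 and 46 reads in the floxed and 4, 4 and 4 in the cKO libraries (voom log2 difference -2.74, adjusted p = 0.05733). Fcer2a, the low-affinity IgE receptor CD23, had 21, 39 and 71 against 4, 12 and 10 reads (voom adjusted p = 0.09459). Neither gene overlapped between the groups, and neither passed. They were the only 2 of the 14 without overlap in the lower direction, and 0 were without overlap in the higher direction. Over the genes with at least 60 reads these shares were 12.0% and 7.24%, so 2 of 14 is near the share of all genes.

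Genes of receptor signalling and the other transcription factors included many abundant ones. None of 7 tested signalling genes and none of 6 tested factors passed in the main fit, with median log2 differences of -0.07 and 0.03 against -0.03 over all genes. In the voom fit Syk, the kinase that binds the CD79 chains, was higher (23.3, 23.3 and 22.6 against 25.8, 25.5 and 27.3 RPKM, adjusted p = 0.01345), and so was the factor Ikzf3 (52.9 to 55.6 against 57.4 to 61.0 RPKM, adjusted p = 0.03252). Without TMM factors Syk still passed (adjusted p = 0.04606) and Ikzf3 did not (adjusted p = 0.1262). Both are also expressed by NK cells.

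**Figure D4:**
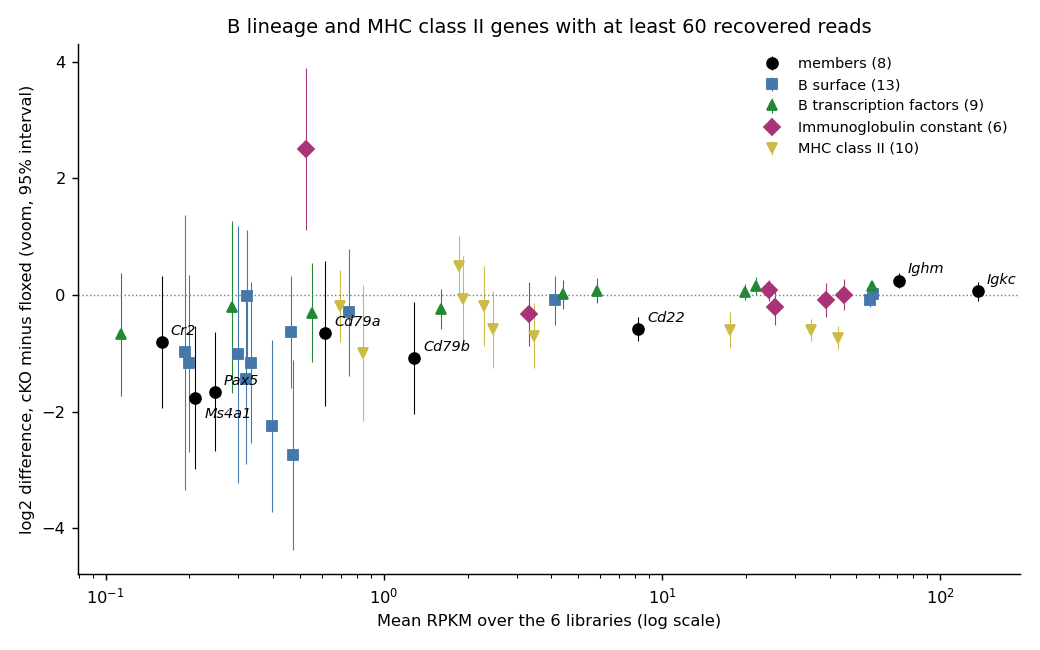
Log2 difference between cKO and floxed libraries from the voom fit, with its 95% interval, against mean RPKM on a log scale, for genes with at least 60 reads. Black points are 8 of the 9 genes and coloured marks are 4 further lists. Above 20 RPKM the B lineage marks lie near 0 while the class II genes there lie below it, and genes under 1 RPKM spread from -2.741 to 2.501 with wide intervals.

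Most of the rest of the immunoglobulin loci had overlapping groups. The 254 variable and joining segments summed to 1389, 1594 and 1534 RPM in the floxed and 1466, 1600 and 1501 RPM in the cKO libraries, a ratio of 1.01 with overlapping groups. None of the 172 segments in the main fit passed (9 higher and 5 lower at an unadjusted p under 0.05), nor any of 165 in the voom fit. The lambda constant regions Iglc1, Iglc2 and Iglc3 summed to 108 to 119 RPKM in the floxed and 98.8 to 112 RPKM in the cKO libraries. Segments and constant regions are near-identical copies in part, so reads may be split between them by the counting. Ighg2b, an IgG heavy chain, was higher in the voom fit, with 15, 17 and 2 reads in the floxed and 44, 44 and 61 in the cKO libraries (log2 difference 2.501, adjusted p = 0.03744).

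Of the plasma cell list of 8, 7 were in the table. Xbp1, a factor of the secretory program that many other cells express, was at 25.9, 27.9 and 27.4 RPKM in the floxed and 20.7, 21.2 and 23.8 RPKM in the cKO libraries. Its groups did not overlap. It did not pass in the main fit (limma adjusted p = 0.1286) or with voom (adjusted p = 0.05163), and it passed as lower with voom without TMM factors (adjusted p = 0.02384). The list as a whole, carried by Xbp1, summed to 97.2 to 104 RPM against 78.2 to 88.4 RPM. Prdm1, the plasma cell repressor, was at 1.397 to 1.735 and 1.49 to 1.67 RPKM, and Sdc1, the surface proteoglycan CD138, had 28 to 92 and 26 to 45 reads. The genes tied most closely to antibody secretion, named after their values were seen, had few reads. Jchain, which joins antibody units, had 6 reads in floxed library 3 and 0 in the other 5, and Mzb1, a chaperone of antibody assembly, had 6 and 2 reads in floxed libraries 1 and 2 and 0 elsewhere. Of the B precursor list, Cd93, a receptor that endothelial and myeloid cells also carry, was at 2.68, 2.36 and 2.31 RPKM in the floxed and 1.60, 1.29 and 2.09 RPKM in the cKO libraries. Its groups did not overlap and it did not pass (limma adjusted p = 0.3067, voom adjusted p = 0.1018). Vpreb1, a surrogate light chain gene, was at 2.33 to 3.17 and 2.64 to 3.06 RPKM, and Vpreb3 had 2 to 10 reads per library. Of the 7 B precursor genes only these 3 were present, and Rag1, Rag2, Dntt and Igll1 were not found by symbol. The deposited table held no gene without reads in all libraries, so a missing gene may be one without reads.

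Other lists differed between the groups beside these genes. The 10 genes of MHC class II presentation, which B cells and dendritic cells share, summed to 193 to 209 RPM in the floxed and 123.3 to 138.8 RPM in the cKO libraries, a ratio of 0.654 with no overlap. Cd74, the class II invariant chain, was at 51.2, 52.4 and 58.5 against 27.5, 31.8 and 36.7 RPKM (limma adjusted p = 0.03054), and H2-Ab1 was lower as well (limma adjusted p = 0.01104). In all, 2 of 8 tested class II genes were lower and 0 higher, against 0.668% and 0.652% of all tested genes. In the voom fit 3 of 10 were lower, against 1.31% of all genes of that fit. H2-Ob, a modulator of peptide loading, had a mean of 138.21% of floxed and did not pass (limma adjusted p = 0.3929). Of 10 tested T cell genes, Cd3e was lower (5.52, 5.67 and 4.86 against 3.05, 2.77 and 2.98 RPKM, limma adjusted p = 0.02319), while the list of 13 summed to 546 to 550 RPM and 530 to 565 RPM. In the voom fit Cd8b1, a CD8 chain, was lower too, with 34, 38 and 48 against 16, 6 and 4 reads (adjusted p = 0.04756). Groups did not overlap in the lower direction for 4 of the 13, against 12.0% of genes with at least 60 reads. The macrophage, dendritic, erythroid and stromal lists had no passing gene in the main fit, and no neutrophil gene entered it. In the voom fit Ly6c2, a monocyte surface antigen that lymphocytes also carry, was lower (8.49, 9.60 and 9.01 against 6.60, 5.51 and 6.005 RPKM, adjusted p = 0.02007), and the integrin chain Itgax was higher (117.29% of floxed, adjusted p = 0.00414). The dendritic list summed to 316 to 357 and 357 to 388 RPM, with Clec9a, named for its low level, at 2 reads in floxed library 1 and 0 elsewhere. That sum does not stand for the list, since 5 of its 8 genes had a lower mean in the cKO libraries and 3 a higher one. The part of these cells in the result was not tested.

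The genes whose level followed the 7 genes most closely were sought over the 6 libraries, among 12725 genes outside the 9. Likeness was Pearson's r between the log2 values and the log2 RPM of the summed reads of the 7 genes. Cd22 supplied 80.0 to 90.1% of those summed reads in each library, so likeness was mostly to Cd22. An r of 0.95 was reached by 167 genes, while 113 were at or below -0.95. The closest 5 were Gm45234 (r = 0.997), Dmrta1 (0.995), Gm14292 (0.993), Ncr1 (0.992) and Ifit3 (0.992). With 2 groups of 3, r mostly reflects the step between the groups. Of these, Dmrta1, a DMRT family factor, was at 7.50, 7.47 and 7.62 against 4.31, 4.65 and 5.07 RPKM. The groups of Dmrta1 did not overlap.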

How the data were processed

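RNA-seq was analysed in 6 libraries, 3 floxed and 3 cKO. Total RNA (2 µg) was extracted with TRIzol and made into stranded mRNA libraries, per the labels' protocols. The submitters' processing notes name the build mm10 and the tools STAR 2.5.3a, Subread 1.5.1 with featureCounts, and edgeR 3.12.1. The role of each tool, the handling of strand and duplicates, and the annotation were not given in the sources used here. RPKM values per gene, with exon coordinates and lengths, were deposited by the authors.

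RPKM multiplied by length gave whole reads for 100% of values within 0.001. limma 3.58.1 (R 4.3.3) fitted log2(RPKM + 1) with a trended eBayes prior, without covariates, two-sided, with Benjamini-Hochberg adjustment over 12731 genes and a threshold of 0.05. Such log2 differences understate changes of low genes. Alternatives were other pseudocounts and filters, limma voom on recovered reads with TMM factors, quantile normalization, a replicate block and leaving out each library. The fits were tested on simulated data. All 9 genes are named, and from each other list at most 3 passing genes by p and 3 others by mean RPKM. Named outside this rule were genes said to be named after their values were seen, and Igha, Ighd, H2-Ob, Clec9a and Cxcr6. The genes and lists were chosen with earlier results of these data known.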

Additional observations from a re-analysis of the deposited data

How the results depend on the processing

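One gene of the 9 was called lower. The count was 0 with no filter, with a mean of at least 0.1 RPKM and with the replicate block, and ran from 0 to 1 on leaving out 1 library. Over all genes, 168 passed (83 higher, 85 lower). There were 80 with no filter, 60 with the replicate block, 505 with voom (306 higher, 199 lower), 498 with voom without TMM factors (216 higher, 282 lower, chosen after seeing the data) and 60 to 89 on leaving out 1 library. The replicate block rests on shared numbers only, since same-numbered libraries correlated at -0.03, 0.01 and 0.04. The log2 ratio of summed reads was -0.01. It was -0.70 without Ighm and Igkc, 0.10 without Cd22, -1.20 without all 3 (chosen after seeing the data) and -0.81 with equal weights. The spread of ratios, 62.7 per degree of freedom, was 7.37, 33.3 and 3.05 for the same gene sets. It was 24.4 as the mean over same-numbered pairs of libraries, without a fitted block, and 43.5 to 58.7 on leaving out 1 library. This statistic grows with the number of reads, so values from fewer libraries are not on the scale of 62.7. With equal weights the SD of log2 ratios was 0.646. Igkc ran from -0.0492 to 0.0701 on leaving out 1 library, with -0.003 without cKO replicate 2. Ighm passed with voom (0.25, adjusted p = 0.03377) and not without TMM factors (adjusted p = 0.08184). Depth limits the 6 low genes, which rested on 0 to 96 reads each per library.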

Other observations

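Igkc was 1.12, 1.20 and 1.25 times the summed level of Iglc1, Iglc2 and Iglc3 in the floxed and 1.36, 1.28 and 1.28 times in the cKO libraries. Ighm was 15.3 to 20.7 times the level of Ighd, the IgD heavy chain, in the floxed and 18.3 to 36.2 times in the cKO libraries. Igha, the IgA heavy chain, was at 21.4, 25.5 and 24.6 against 22.5, 26.3 and 25.0 RPKM, with Jchain at 0 reads in 5 of the 6 libraries. By family, heavy chain V segments summed to 304 to 369 RPM in the floxed and 334 to 364 RPM in the cKO libraries (ratio 1.02), kappa V segments to 837 to 937 and 879 to 948 RPM (ratio 1.01), and the 3 lambda V segments to 78.7 to 91.4 and 76.6 to 91.2 RPM (ratio 0.996).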
